A study of Rattus norvegicus with 8 samples.

Results

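The mitotic spindle and checkpoint genes are the genes that carry a cell through mitosis and that serve as markers of cycling cells. A list of 40 such genes was given by symbol, with no threshold on the measured values, and 33 of them were represented on the array by a probe set that carried their symbol, out of 15037 distinct symbols in all. The other 7 (Bub1b, Cenpe, Top2a, Spc24, Anln, Cdc25c and Melk) had no probe set under their symbol in the annotation used and were not analysed here. Each of the 33 genes had a single probe set.

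Entry into mitosis is driven by cyclin-dependent kinase 1 with cyclins A and B, and is followed by spindle assembly under polo-like and Aurora kinases. The spindle checkpoint holds the anaphase-promoting complex (APC/C), a ubiquitin ligase, until all chromosomes are attached, after which cyclin B and securin are degraded and the sister chromatids separate. Transcripts of these genes peak in G2 and M phase, and their promoters are repressed in resting cells by the DREAM complex and activated in cycling cells by B-Myb and FoxM1. Myoblasts leave the cell cycle before they fuse into myotubes, and the transcripts are low in cells that have left it.

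The cells were H9c2, a rat myoblast line derived from embryonic heart, measured on rat Clariom S Pico arrays in 4 groups. These were nanoceria-treated cells in space (2 arrays), untreated cells in space (1 array), nanoceria-treated cells on ground (3 arrays) and untreated cells on ground (2 arrays, replicates 1 and 3). Nanoceria, cerium oxide nanoparticles with a serum coating, was given at 100 µg/ml. All cultures were seeded at 35000 cells per square centimetre, grown in differentiation medium and fixed on day 10, the flight cultures having entered the 37 °C incubator of the International Space Station on day 7, and 1 reservoir of medium with nanoceria served 2 culture units. Ground cultures were run afterwards and followed the logged flight temperatures, so gravity regime and culture run cannot be told apart. Whether replicates came from separate cultures is not stated, and p-values therefore measure only the spread between these arrays, whose number limits the precision. The median intensity of all 23188 probe sets ran from 107 to 117 over the arrays. Detection calls were not used here, and a dim level therefore cannot be placed against background. As a check of the cell type, the muscle regulator Myog ran from 6.25 to 9.89 and Cdh15, a cadherin of myoblasts, from 8.54 to 9.55 on the log2 scale, while Myf5, another muscle regulator, ran from 4.01 to 4.75. Pecam1 (endothelium) ran from 4.16 to 4.73, Ptprc (leukocytes) from 4.03 to 4.62 and Epcam (epithelium) from 3.75 to 4.19, with 4.26 as the level below which the lowest 10% of all values lay. Other markers were brighter, Kdr (endothelium) running from 5.85 to 6.24 and Cd68 (macrophages) from 7.11 to 7.74. Krt8, a keratin of simple epithelia, ran from 10.42 to 12.15. In RNA of whole cultures, fewer dividing cells and less mitotic RNA per cell cannot be told apart.

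The mitotic genes were far lower on untreated ground 3 (replicate 3 of the untreated ground cells) than on any other array. The median level over the 33 genes was 6.60 on untreated ground 3, against 9.23 and 9.04 in nanoceria-treated cells in space, 8.89 in untreated cells in space, 9.11, 9.44 and 8.67 in nanoceria-treated cells on ground and 9.22 on untreated ground 1 (log2 intensity). Untreated ground 3 held the lowest of the 8 values in 32 of the 33 genes, and in 16.5% of all probe sets. Ect2, a gene of cytokinesis, was the exception, with 6.64 on untreated ground 3 and 6.22 and 6.52 on nanoceria ground 1 and 3. The drop against the mean of the 7 other arrays had a median of -2.40 and ran from -3.95 (Plk1) to -0.39 (Ect2) on the log2 scale, with a median of -0.041 over all probe sets. It exceeded 1 log2 unit in 31 of the 33 genes (1.78% of all probe sets), 2 units in 22 (0.354% of all probe sets) and 3 units in 7 (0.0863% of all probe sets). In 25 genes the level also lay more than 1 unit below the lowest of the 7 other arrays (0.75% of all probe sets). Incenp, at -0.91, was the other gene that dropped by less than 1 unit. Summed over the 33 probe sets, the linear intensity was 4373 on untreated ground 3, against 20138 to 29372 on the 7 other arrays. These values describe 1 array and carry no test, and each comparison of the mitotic genes that used it is given below with and without it.

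**Figure D1:**
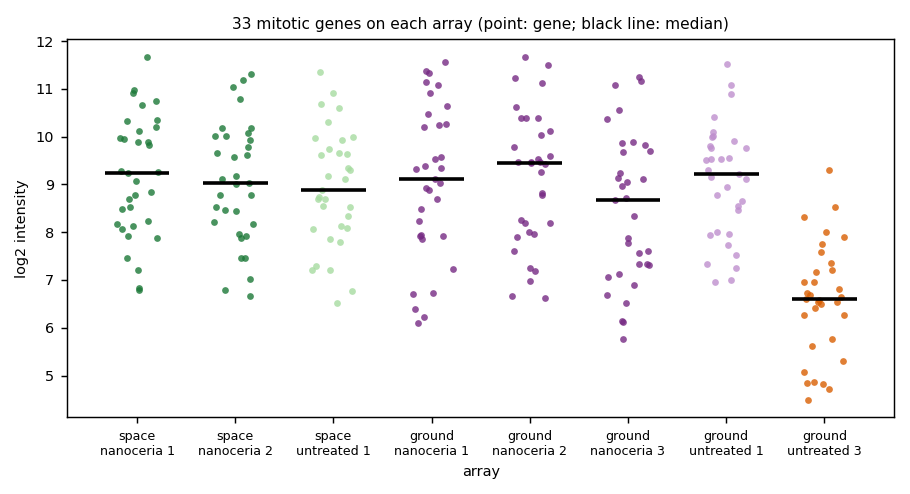
Log2 intensity of the 33 mitotic genes (points) on each of the 8 arrays (x axis), with the median over the genes as a black line. The median lies at 6.60 on untreated ground 3, against 8.67 to 9.44 on the 7 other arrays.

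**Figure D2:**
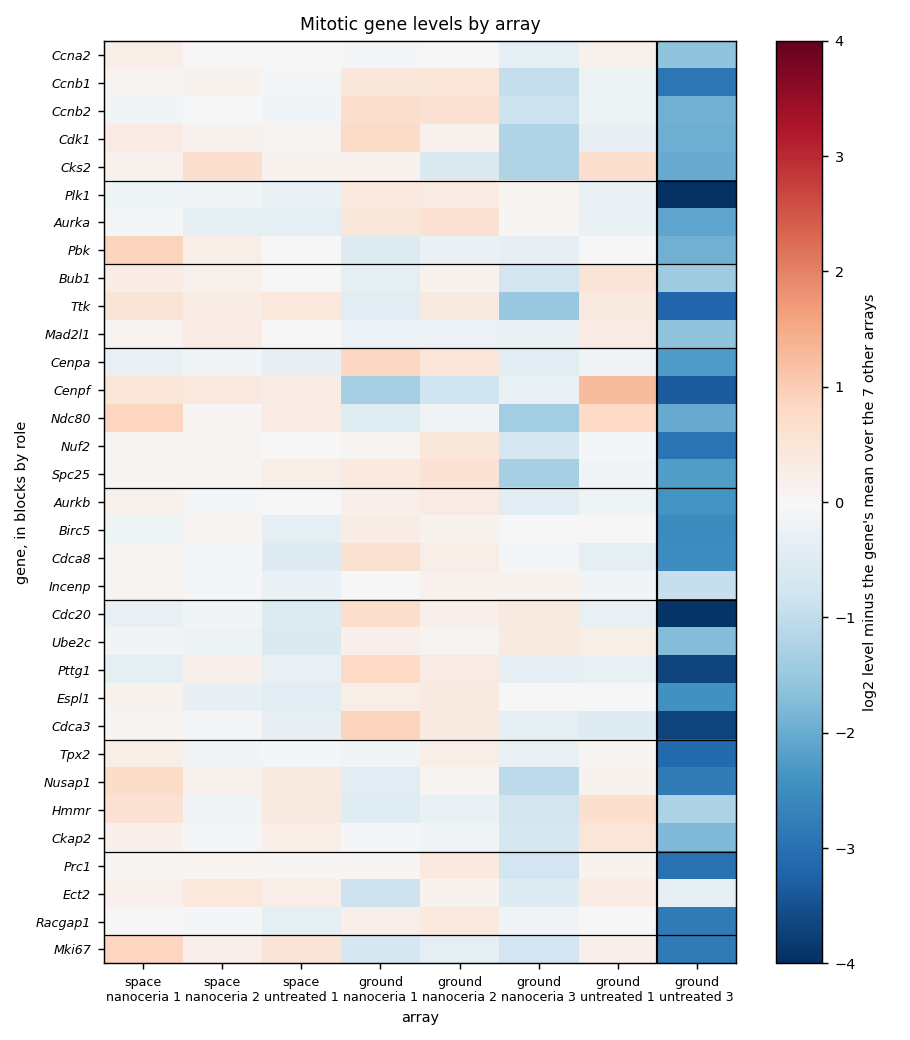
Log2 level of each mitotic gene (rows, in blocks by role) on each array (columns), relative to that gene's mean over the 7 arrays other than untreated ground 3, which stands right of the vertical line. The column of untreated ground 3 is blue in all 33 rows, by -3.95 for Plk1 to -0.39 for Ect2, and nanoceria ground 3 is the next bluest column, with the lowest value of the remaining 7 arrays in 19 rows.

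The promoters of the genes were searched for letters known from the DREAM and B-Myb controlled promoters, since the genes were low together on untreated ground 3. The first was the cell cycle homology region (CHR), searched as TTTGAA, its reverse complement TTCAAA, or TTCGAA, which is its own reverse complement. The second was the CCAAT box, bound by NF-Y, searched as CCAAT or its reverse complement ATTGG. RefSeq promoters (GRCr8) were held for 33 of the 40 genes of the list, of which 26 were also measured. In the 250 bases upstream of the start, a CHR was present in 19 of the 33 (57.6%, against 17.4% of all 33469 promoters), a CCAAT box in 25 (75.8%, against 34% of all) and both in 17 (51.5%, against 6.31% of all). At least 2 CCAAT boxes were present in 19 (57.6%, against 9.42% of all). Among the measured genes, the difference between untreated ground 3 and the mean of the 7 other arrays had a median of -2.28 in the 15 with both and of -2.89 in the 11 others. In a window of 300 bases, which adds 50 bases downstream of the start, it was -2.50 in the 19 with both and -2.11 in the 7 others. The order of the medians thus changed with the window. A match is a description of letters and not a site of binding.

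The 3 measured genes with both kinds of letters and the largest differences between nanoceria-treated and untreated ground cells are shown because they lay furthest apart there, and Aurka as the gene with neither kind and the largest such difference. Each is the 250 bases upstream of the start, 5′ to 3′ on the gene's strand, with CHR and CCAAT letters in capitals. Cdc20 lies at chr5:137255800-137256049 on the minus strand, Pttg1 at chr10:28406327-28406576 on the minus strand, Cdca8 at chr5:142483200-142483449 on the minus strand and Aurka at chr3:181560770-181561019 on the minus strand (GRCr8).
Cdc20: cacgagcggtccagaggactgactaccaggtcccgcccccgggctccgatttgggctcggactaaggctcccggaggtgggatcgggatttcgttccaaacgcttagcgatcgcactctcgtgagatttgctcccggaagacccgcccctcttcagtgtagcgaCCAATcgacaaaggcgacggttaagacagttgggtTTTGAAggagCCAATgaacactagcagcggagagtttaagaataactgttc
Pttg1: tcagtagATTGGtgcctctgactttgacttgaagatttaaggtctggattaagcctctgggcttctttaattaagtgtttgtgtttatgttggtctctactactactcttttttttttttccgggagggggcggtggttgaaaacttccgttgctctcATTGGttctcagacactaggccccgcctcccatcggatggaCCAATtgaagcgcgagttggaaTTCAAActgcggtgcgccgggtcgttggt
Cdca8: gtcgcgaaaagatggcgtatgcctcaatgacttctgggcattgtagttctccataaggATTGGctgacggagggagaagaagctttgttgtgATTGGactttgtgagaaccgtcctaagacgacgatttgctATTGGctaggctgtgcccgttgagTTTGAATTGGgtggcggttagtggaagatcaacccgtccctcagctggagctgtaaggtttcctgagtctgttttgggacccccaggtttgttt
Aurka: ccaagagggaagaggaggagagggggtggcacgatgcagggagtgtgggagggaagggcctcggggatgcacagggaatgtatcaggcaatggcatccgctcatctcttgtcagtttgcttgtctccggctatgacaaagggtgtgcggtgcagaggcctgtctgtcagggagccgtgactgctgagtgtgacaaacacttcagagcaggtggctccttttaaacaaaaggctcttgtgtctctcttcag
In Cdc20 the CHR lies 51 to 46 bases upstream of the start, between CCAAT boxes at 86 to 82 and at 41 to 37. In Pttg1 the CHR lies at 29 to 24, with the nearest CCAAT box at 51 to 47. In Cdca8 the CHR at 94 to 89 overlaps the last base of a CCAAT box on the other strand at 89 to 85, and 3 more boxes lie further upstream. The Aurka window holds neither, and Aurka dropped by 2.11 log2 units on untreated ground 3.

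Cyclins, Cdk1 and their partners open mitosis, and 5 of 6 were measured. Ccnb1 encodes cyclin B1, the activating partner of Cdk1 at mitotic entry, and its log2 level was 10.75 and 10.78 in nanoceria-treated cells in space, 10.60 in untreated cells in space, 11.08, 11.13 and 9.68 in nanoceria-treated cells on ground, and 10.42 and 7.74 in untreated cells on ground (replicates 1 and 3). Cdk1 itself was at 10.21 and 10.02 (space, nanoceria), 9.98 (space, untreated), 10.64, 10.04 and 8.67 (ground, nanoceria), and 9.53 and 7.90 (ground, untreated). Cks2, a small subunit that binds Cdk1, was at 8.69 and 9.18 (space, nanoceria), 8.69 (space, untreated), 8.69, 7.96 and 7.32 (ground, nanoceria), and 9.22 and 6.53 (ground, untreated). In all 3 the lowest value was that of untreated ground 3 and the next lowest that of nanoceria ground 3, and the ground groups overlapped. Ccna2 (cyclin A2) was at 8.01 on untreated ground 3, against 9.24 to 9.90 elsewhere, and Ccnb2 (cyclin B2) at 6.27 on untreated ground 3, against 7.34 to 8.89 elsewhere.

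Among the mitotic kinases, 3 of 4 were measured. Plk1, the polo-like kinase of spindle assembly and mitotic entry, was at 10.99 and 11.04 (space, nanoceria), 10.91 (space, untreated), 11.56, 11.50 and 11.25 (ground, nanoceria), and 10.89 and 7.21 (ground, untreated). Its 7 other values spanned 0.67 log2 units, and their geometric mean was 15.5 times the level on untreated ground 3. Pbk, a kinase active in mitotic cells, was at 8.12 and 7.46 (space, nanoceria), 7.21 (space, untreated), 6.74, 6.97 and 6.90 (ground, nanoceria), and 7.26 and 5.30 (ground, untreated), with the 3 space values and untreated ground 1 above the treated ground values and untreated ground 3 below them. Aurka, the centrosomal Aurora kinase, was at 6.81 on untreated ground 3, against 8.52 to 9.53 elsewhere, with the 3 treated ground arrays above all others.

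The spindle checkpoint, which delays anaphase while kinetochores are unattached, had 3 of 4 genes measured. Ttk (the kinase Mps1), which starts the checkpoint signal, was at 8.17 and 7.95 (space, nanoceria), 8.06 (space, untreated), 7.23, 8.00 and 6.13 (ground, nanoceria), and 8.01 and 4.48 (ground, untreated). Bub1, a kinase recruited to unattached kinetochores, was at 6.79 and 6.67 (space, nanoceria), 6.52 (space, untreated), 6.10, 6.65 and 5.77 (ground, nanoceria), and 7.01 and 5.08 (ground, untreated). In both genes nanoceria ground 3 was the second lowest array. Mad2l1 (Mad2), which binds and restrains Cdc20, was at 6.55 on untreated ground 3, against 7.89 to 8.46 elsewhere.

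Kinetochore and centromere genes, which attach chromosomes to microtubules, had 5 of 7 members measured. Cenpa, the histone H3 variant of centromeres, was at 6.83 and 7.02 (space, nanoceria), 6.77 (space, untreated), 7.95, 7.61 and 6.68 (ground, nanoceria), and 6.96 and 4.84 (ground, untreated). Ndc80, the microtubule-binding subunit of the complex that bears its name, was at 9.83 and 9.01 (space, nanoceria), 9.31 (space, untreated), 8.48, 8.83 and 7.60 (ground, nanoceria), and 9.77 and 6.96 (ground, untreated). Cenpa was thus highest in nanoceria ground 1 and 2, while Ndc80 was high in space and on untreated ground 1 and lower in all treated ground cells. Cenpf, a large kinetochore protein of G2 and M phase, had the widest spread over the 7 arrays without untreated ground 3, with 8.53 and 8.45 (space, nanoceria), 8.34 (space, untreated), 6.72, 7.25 and 7.77 (ground, nanoceria), and 9.31 and 4.72 (ground, untreated). Nuf2, a subunit of the Ndc80 complex, was at 4.86 on untreated ground 3, against 7.13 to 8.26 elsewhere, and its subunit Spc25 at 6.42 on untreated ground 3, against 7.34 to 9.25 elsewhere.

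The chromosomal passenger complex, which corrects faulty attachments and later steers cytokinesis, had all 4 members measured. Its targeting subunit borealin, encoded by Cdca8, was at 9.95 and 9.78 (space, nanoceria), 9.35 (space, untreated), 10.47, 10.12 and 9.82 (ground, nanoceria), and 9.51 and 7.36 (ground, untreated). Its scaffold Incenp was at 10.32 and 10.18 (space, nanoceria), 9.97 (space, untreated), 10.23, 10.38 and 10.36 (ground, nanoceria), and 10.11 and 9.31 (ground, untreated). All treated ground values of both genes lay above both untreated ground values. The kinase subunit Aurkb was at 6.73 on untreated ground 3, against 8.71 to 9.46 elsewhere, and Birc5 (survivin) at 8.53 on untreated ground 3, against 10.68 to 11.38 elsewhere. Incenp thus dropped less than its 3 partners, at -0.91 against the mean of the 7 other arrays, with its partners between -2.55 (Birc5) and -2.40 (Aurkb).

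The APC/C activator, its targets and the protease of sister separation had all 5 members measured and the deepest median drop of the role classes with more than 1 gene, at -3.69. Cdc20, the activator, was at 9.90 and 10.07 (space, nanoceria), 9.63 (space, untreated), 10.91, 10.38 and 10.56 (ground, nanoceria), and 9.91 and 6.27 (ground, untreated). Ube2c, the ubiquitin-conjugating enzyme of the APC/C, was at 9.23 and 9.12 (space, nanoceria), 8.75 (space, untreated), 9.54, 9.43 and 9.70 (ground, nanoceria), and 9.55 and 7.59 (ground, untreated). Cdc20 was thus highest in the 3 treated ground arrays and lowest by over 3 log2 units on untreated ground 3, and Ube2c dropped by 1.74 there. Pttg1 (securin), which holds separase inactive, was at 5.77 on untreated ground 3, against 9.08 to 10.26 elsewhere. Cdca3, which promotes degradation of the mitotic inhibitor Wee1, was at 6.58 on untreated ground 3, against 9.76 to 11.15 elsewhere, and Espl1 (separase) at 6.68 on untreated ground 3, against 8.70 to 9.47 elsewhere.

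Spindle assembly and cytokinesis genes had 7 of 8 members measured. Tpx2, which activates Aurora A on the spindle, was at 11.67 and 11.32 (space, nanoceria), 11.34 (space, untreated), 11.33, 11.67 and 11.17 (ground, nanoceria), and 11.51 and 8.31 (ground, untreated). Hmmr, a microtubule-binding spindle protein, was at 7.46 and 6.78 (space, nanoceria), 7.22 (space, untreated), 6.40, 6.62 and 6.14 (ground, nanoceria), and 7.51 and 5.62 (ground, untreated). Outside untreated ground 3, Tpx2 stayed within a range of 0.50 log2 units, while Hmmr was lower in treated ground cells than on untreated ground 1 or in space. Nusap1, a spindle microtubule bundling protein, was at 6.60 on untreated ground 3, against 8.33 to 10.12 elsewhere, and Ckap2, a spindle-associated protein, at 6.51 on untreated ground 3, against 7.57 to 8.77 elsewhere. Of the midzone genes, Racgap1, a subunit of centralspindlin, was at 9.98 and 9.92 (space, nanoceria), 9.65 (space, untreated), 10.21, 10.39 and 9.87 (ground, nanoceria), and 10.00 and 7.17 (ground, untreated). Ect2, its partner in starting furrow ingression, was at 7.22 and 7.46 (space, nanoceria), 7.29 (space, untreated), 6.22, 7.19 and 6.52 (ground, nanoceria), and 7.34 and 6.64 (ground, untreated). Prc1, which bundles the microtubules of the midzone, was at 4.82 on untreated ground 3, against 7.06 to 8.20 elsewhere. Racgap1 and Prc1 thus dropped with the other genes, and Ect2 overlapped between the ground groups.

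Mki67 encodes Ki-67, the coat protein of mitotic chromosomes that is the standard marker of proliferating cells. Its level was 10.67 and 10.00 in nanoceria-treated cells in space, 10.32 in untreated cells in space, 9.11, 9.44 and 9.05 in nanoceria-treated cells on ground, and 10.01 and 6.96 in untreated cells on ground. The 3 space arrays lay above the 3 treated ground arrays without overlap, untreated ground 1 lay within the space values, and untreated ground 3 lay over 2 log2 units below the lowest of the others.

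Nanoceria was compared with no treatment on ground to see what the particles did at normal gravity. Of the 33 mitotic genes, 30 lay higher in treated cells (55.5% of all probe sets), with a median log2 difference of 1.07 against 0.038 over all probe sets. The highest were Cdc20 at 2.53 ± 0.89, Cdca3 at 2.39 ± 0.83, Plk1 at 2.38 ± 0.89 and Pttg1 at 2.26 ± 0.87 (log2 difference ± SE), and the lowest were Ect2 at -0.35 ± 0.33, Hmmr at -0.19 ± 0.51 and Ndc80 at -0.06 ± 0.77. With limma and Benjamini-Hochberg adjustment over all 23188 probe sets, 0 of the 33 genes passed an adjusted p of 0.05 (0% of all probe sets), the smallest adjusted p being 0.336 for Aurka. At an unadjusted p below 0.05 there were 8 genes higher (4.42% of all probe sets) and 0 lower (6.57% of all probe sets), namely Plk1, Aurka, Cenpa, Cdca8, Incenp, Cdc20, Pttg1 and Cdca3. All 3 treated arrays lay above both untreated arrays in 6 genes (14.3% of all probe sets), Plk1, Aurka, Cdca8, Incenp, Cdc20 and Cdca3, and below both in 0 (12% of all probe sets). In simulated data of the same size, with changes in randomly chosen probe sets, the fit recovered 0% of 2-fold and 81% of 4-fold changes in this comparison. The median SE over all probe sets was 0.21, and the mitotic genes had SEs of 0.24 (Incenp) to 1.13 (Cenpf). The simulated rates therefore do not give the recovery for the mitotic genes.

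The result for nanoceria on ground turned on which untreated array was used. Without untreated ground 3, the untreated side was untreated ground 1 alone, taken to vary like the other groups. The median over the mitotic genes was then 0.0053 and 17 of 33 lay above 0 (52.6% of all probe sets). At an unadjusted p below 0.05, 2 genes were then higher (Plk1 at 0.54 ± 0.21 and Cdc20 at 0.71 ± 0.25; 5.65% of all probe sets) and 8 lower (8.73% of all probe sets), among them Cenpf at -2.06 ± 0.38, Ndc80 at -1.47 ± 0.51, Hmmr at -1.13 ± 0.32 and Mki67 at -0.81 ± 0.31. None had an adjusted p below 0.05, the smallest being 0.119 for Cenpf. Without untreated ground 1, the untreated side was untreated ground 3 alone, taken to vary like the other groups, the median was 2.43, and 31 of 33 were higher at an unadjusted p below 0.05 (5.23% of all probe sets). In that fit 16 passed an adjusted p of 0.05 (0.461% of all probe sets), with Plk1 at 4.22 and Cdc20 at 4.34, and 0 were lower (0.259% of all probe sets). The count of 8 higher genes with all arrays became 1 without nanoceria ground 1, 3 without nanoceria ground 2 and 9 without nanoceria ground 3. It stayed at 8 without space untreated 1. Leaving out either treated space array lowered the count through the estimate of the spread alone, as the median difference stayed at 1.07.

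Set against untreated ground 1 alone, the mitotic genes lay on both sides of 0. In 6 genes all 3 treated ground arrays lay above untreated ground 1 (29.9% of all probe sets), and these were Plk1, Aurka, Cdca8, Incenp, Cdc20 and Cdca3. In 13 genes all 3 lay below it (28.7% of all probe sets), and these were Ccna2, Cks2, Pbk, Bub1, Ttk, Mad2l1, Cenpf, Ndc80, Nusap1, Hmmr, Ckap2, Ect2 and Mki67. The mitotic kinases had a median difference of 0.54 and the APC/C group of 0.57, against -0.83 for the checkpoint group and -0.69 for the spindle assembly group. The differences are those of the fit without untreated ground 3 above, and not a separate result. They rest on a single untreated array, whose own spread is not known, and the counts here carry no test.

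Space was compared with ground in nanoceria-treated cells, a comparison that leaves out both untreated ground arrays. The median difference over the mitotic genes was 0.16 (against -0.051 over all probe sets), with 19 genes higher (41.4% of all probe sets) and 14 lower in space. The largest positive differences, none past the test, were Cenpf at 1.24 ± 1.13, with levels of 8.49 ± 0.06 (SD, n = 2) in space and 7.25 ± 0.53 (SD, n = 3) on ground, Mki67 at 1.14 ± 0.76, with 10.34 ± 0.47 in space and 9.20 ± 0.21 on ground, and Ndc80 at 1.12 ± 0.77. The largest negative ones were Cdc20 at -0.63 ± 0.89, with 9.98 ± 0.12 in space and 10.62 ± 0.27 on ground, Aurka at -0.60 ± 0.49 and Cenpa at -0.49 ± 0.61. The treated arrays did not overlap between regimes in 11 genes that were higher in space (13.6% of all probe sets) and 4 that were lower (17.6% of all probe sets). The 11 were Ccna2, Cks2, Pbk, Bub1, Mad2l1, Cenpf, Ndc80, Nusap1, Hmmr, Ect2 and Mki67, and the 4 were Plk1, Aurka, Cdc20 and Ube2c. All 11 also lay below untreated ground 1 in every treated ground array, and Plk1, Aurka and Cdc20 above it, but these counts share the treated ground arrays.

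With the spread estimated from all 8 arrays, 0 of the 33 genes were past an unadjusted p of 0.05 between space and ground in treated cells in either direction (5.02% of all probe sets higher, 3.39% lower). Untreated ground 3 is no part of this comparison but adds to the spread. Without it the differences were the same, the standard errors were smaller, and 8 genes were higher (6.08% of all probe sets) and 4 lower (4% of all probe sets) at an unadjusted p below 0.05. Those with the smallest p were Mki67 at 1.14 ± 0.24 and Cenpf at 1.24 ± 0.30, with Pbk at 0.92 ± 0.23 and Cdc20 at -0.63 ± 0.20. None passed after adjustment by limma (0 genes, smallest adjusted p = 0.291 for Mki67). Leaving out untreated ground 1 instead gave the same fit for this comparison, so it is no second result. What the untreated ground arrays add to the spread is the gap between them. The median turned to -0.16 without nanoceria ground 3, the array with the second lowest mitotic levels, and to -0.042 with array weights.

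**Figure D3:**
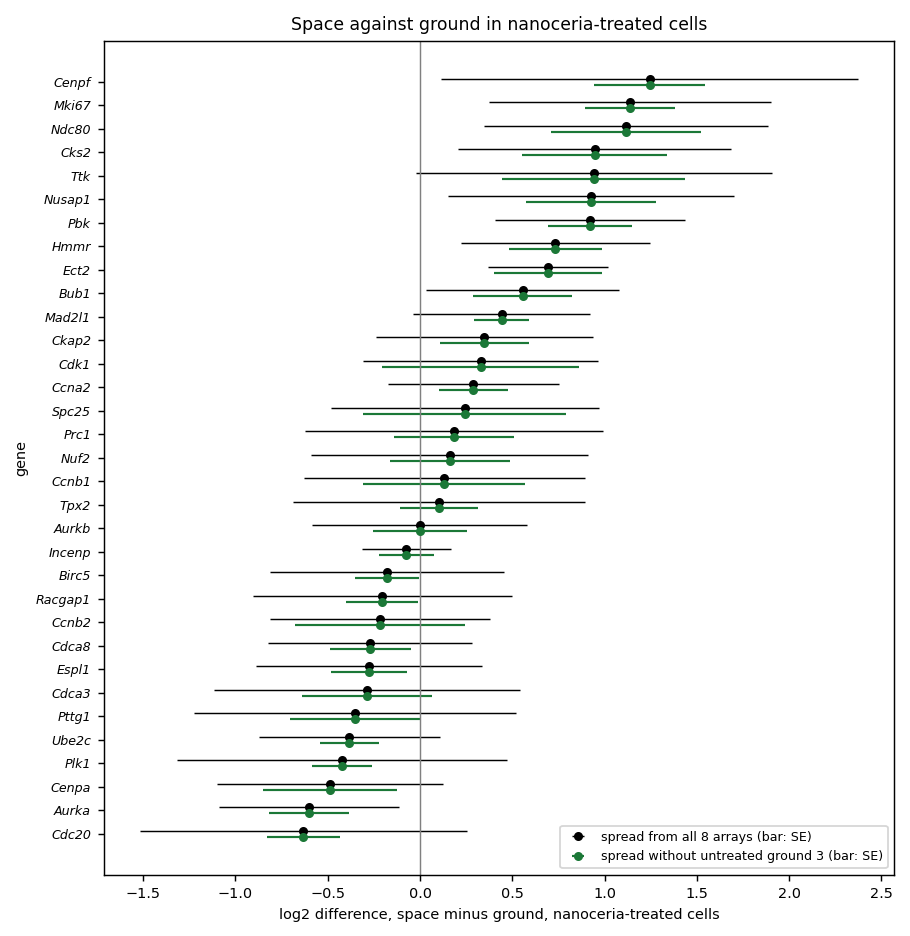
Log2 difference between space and ground in nanoceria-treated cells for each mitotic gene, with the standard error from all 8 arrays (black) and without untreated ground 3 (green). Cenpf, Mki67 and Ndc80 lie highest (1.24, 1.14 and 1.12) and Cdc20 and Aurka lowest (-0.63 and -0.60), and the values are identical in both fits.

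Nanoceria ground 3 was the second array with low mitotic levels. Among the 7 arrays without untreated ground 3, 19 of the 33 genes had their lowest value there, where 13.5% of all probe sets had theirs. Against the mean of nanoceria ground 1 and 2, its mitotic genes had a median log2 difference of -0.49, from -1.81 to 0.79, with 29 of 33 below 0, and the median over all probe sets was 0.044. The share of all probe sets below 0 was not computed. Thus the 3 treated ground replicates differed among themselves, and Ccnb1, for example, had a level of 10.63 ± 0.82 (SD, n = 3) in that group against 10.76 ± 0.02 (SD, n = 2) in treated cells in space.

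In space, nanoceria was compared with 1 untreated array, so the values carry no test. The median difference between the mean of the 2 treated arrays and the single untreated array was 0.15, against 0.0082 over all probe sets, from -0.20 (Ckap2) to 0.58 (Pbk). Both treated arrays exceeded the untreated one in 21 genes (34.4% of all probe sets) and both lay below it in 2, Spc25 and Ckap2 (31.5% of all probe sets). The difference between the nanoceria effects in space and on ground had a median of -1.05 over the mitotic genes and 0.23 without untreated ground 3. None of the 33 genes passed this interaction test (0 genes at an adjusted p of 0.05 or at an unadjusted p below 0.05 by limma; 1.44% of all probe sets higher and 0.906% lower). At 4-fold, 35% of simulated interactions were recovered, in randomly chosen probe sets and not in the mitotic genes.

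Over both regimes, nanoceria against no treatment gave a median of 0.79 for the mitotic genes, and space against ground over both treatments gave 0.53. For nanoceria, 5 genes were higher at an unadjusted p below 0.05 (3.77% of all probe sets), Aurka at 1.06 ± 0.43, Cdca8 at 1.28 ± 0.46, Incenp at 0.50 ± 0.19, Cdc20 at 1.75 ± 0.76 and Cdca3 at 1.66 ± 0.71, and 0 were lower (5.86% of all probe sets). For space, 30 genes lay above 0 (41.3% of all probe sets), 2 were higher at that p (5.3% of all probe sets), Pbk at 0.93 ± 0.38 and Mki67 at 1.38 ± 0.58, and 0 were lower (4.26% of all probe sets). No gene passed after adjustment, the smallest adjusted p by limma being 0.463 for nanoceria (Cdca8) and 0.507 for space (Pbk). Without untreated ground 3 the medians were 0.092 for nanoceria and 0.13 for space. There were then 2 genes higher (3.1% of all probe sets) and 0 lower (5.2% of all probe sets) with nanoceria, 3 higher in space (Pbk, Nusap1 and Mki67; 5.61% of all probe sets) and 3 lower (Aurka, Cdc20 and Ube2c; 4.56% of all probe sets), and none passed after adjustment (0.00431% of all probe sets for space). Both comparisons use the same 8 arrays.

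Genes that act beside the mitotic list were read on untreated ground 3 in the same way, and those named here were chosen after their values were seen. All 10 measured mitotic kinesins, the motors of the spindle, were lower there than the mean of the 7 other arrays (median -1.74), from Kif23 of centralspindlin at -3.11 to Kifc1 at -1.08. Of the 10, 8 had their lowest value there (16.5% of all probe sets). Of 33 genes of G1 and S phase (median -1.09), 23 had their lowest value there (16.5% of all probe sets). Among the 23 were the helicase genes Mcm6 at -2.18, Mcm7 at -1.55 and Mcm2 at -1.09. The G1 kinases and cyclins differed among themselves. Cdk4 was at 0.041, Cdk6 at 0.0043, Ccnd2 at -0.0044 and Ccnd3 at -0.0063, while Ccnd1 was at -0.36, Ccne2 at -0.81, Cdk2 at -0.91 and Ccne1 at -1.44. Other kinetochore genes had a median of -0.97, with Kntc1 at -2.31 and Cenpc at 0.20. The list of APC/C core subunits, regulators and inhibitors had a median of 0.084, with the core subunits Cdc27 at 0.30 and Anapc1 at 0.54, and the inhibitor Fbxo5 (Emi1), itself a cycling gene, at -1.31.

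Regulators of mitotic transcription differed among themselves on untreated ground 3. The activators Foxm1 at -1.98 and Mybl2 (B-Myb) at -1.52 had their lowest value there, as did E2f7 at -1.96 and E2f1 at -0.57. Rbl2, which encodes the pocket protein p130 of the DREAM complex, had its highest value there, at 1.06, the only 1 of the 16 genes on this list to do so. Rbl1 of the same list had its lowest value there, at -0.79. Lin37 was at 0.0097, Tfdp2 at -0.029, E2f4 at -0.14, Lin54 at -0.17 and Tfdp1 at -0.27. Foxm1 was at 8.53 and 8.52 (space, nanoceria), 8.43 (space, untreated), 9.21, 8.91 and 8.58 (ground, nanoceria), and 8.26 and 6.65 (ground, untreated). Among CDK inhibitors and arrest genes (median 0.17), 6 of 15 were highest on untreated ground 3 and 5 lowest. Of all probe sets, 16.5% were lowest there, and the share highest there was not computed. The 6 were Gadd45a at 1.57, Cdkn1a, which encodes p21, at 0.92, Mdm2 at 0.78, Ccng1 at 0.74, Cdkn2b at 0.61 and Sesn2 at 0.59. The 5 were Cdkn2c at -1.07, Gadd45b at -0.91, Cdkn1c at -0.57, Cdkn2d at -0.35 and Btg1 at -0.18. Summed over the 15 genes, the linear intensity was 25785 there, mostly that of Cdkn1a and Gadd45a, against 15220 to 18088 elsewhere. Of 12 muscle markers, 6 were lowest on untreated ground 3 (16.5% of all probe sets). These included Myog at 6.25 against 8.24 to 9.89 elsewhere and Acta1 (skeletal actin) at 7.52 against 8.69 to 10.81. The summed intensity of the muscle list, mostly that of Vim, a filament protein of mesenchymal cells in general, was 15521 there against 14954 to 19800. Markers of other cell types summed to 154 on untreated ground 3 against 163 to 227 elsewhere for endothelium, to 306 against 238 to 279 for leukocytes, and to 2760 against 1517 to 4655 for epithelium, the last mostly Krt8. The part of these genes in the low mitotic levels was not tested.

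**Figure D4:**
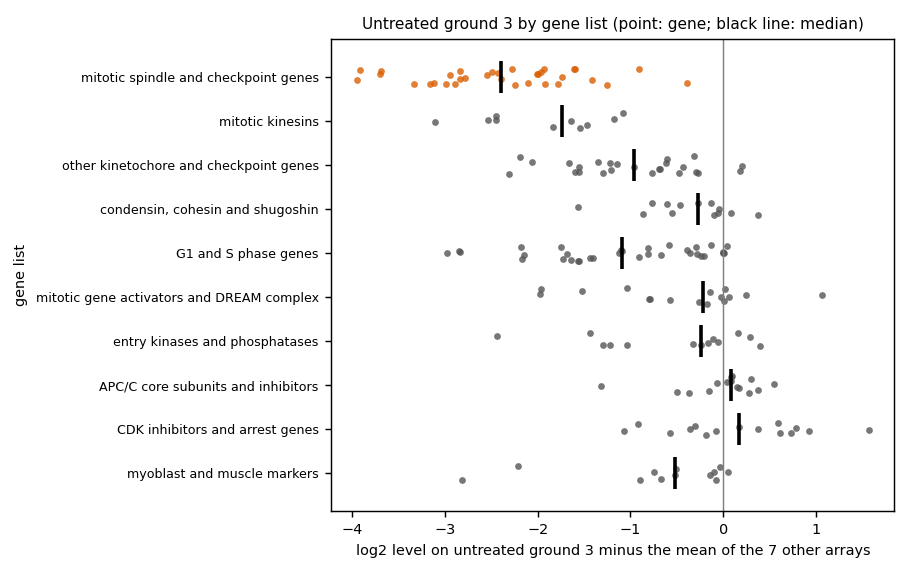
Log2 level on untreated ground 3 minus the mean of the 7 other arrays, for each gene (points) of the mitotic list (top, orange) and of related lists, with the median of each list as a black line. The mitotic list has its median at -2.40 and the kinesins at -1.74, while the APC/C list and the CDK inhibitor list have theirs at 0.084 and 0.17.

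Between nanoceria-treated and untreated cells on ground, the related lists had medians of -0.23 to 0.68, against 1.07 for the mitotic list, with 0 genes past adjustment by limma in any of them. The counts that follow are at an unadjusted p below 0.05, which 4.42% of all probe sets passed as higher and 6.57% as lower. The mitotic kinesins had a median of 0.68 with 3 of 10 genes higher and 0 lower, the genes with the smallest p being Kif18b at 1.68 ± 0.26, Kifc1 at 1.31 ± 0.28 and Kif22 at 1.54 ± 0.46. The G1 and S phase list had a median of 0.44 (8 of 33 higher and 1 lower), led by Mcm7 at 1.38 ± 0.34, Mcm2 at 0.98 ± 0.25 and Mcm6 at 1.55 ± 0.47. The transcription list had a median of 0.12 (4 of 16 higher and 1 lower), led by Mybl2 at 1.18 ± 0.33, Foxm1 at 1.44 ± 0.43 and the NF-Y subunit gene Nfyb at -0.63 ± 0.19. Other kinetochore genes had a median of 0.66 (4 of 25 higher and 1 lower), led by the checkpoint genes Mad1l1 at 0.81 ± 0.19 and Bub3 at 0.63 ± 0.17 and the centromere gene Cenpc at -1.04 ± 0.30. The APC/C list had a median of -0.040 (1 of 15 higher and 1 lower), with its G1 activator Fzr1 at 0.73 ± 0.22, Anapc4 at -0.74 ± 0.20 and Anapc10 at -0.46 ± 0.22. Without untreated ground 3 the medians were -0.47 for kinesins, -0.12 for G1 and S phase, 0.089 for the transcription list, 0.11 for other kinetochore genes, 0.038 for the APC/C list, 0.078 for CDK inhibitors and arrest genes and -0.28 for entry kinases and phosphatases. Against untreated ground 1 alone, Kif18b was at 1.42, Mcm7 at 0.79, Foxm1 at 0.64 and Mybl2 at 0.59.

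The condensin and cohesin list had a median of -0.23 with nanoceria, with 1 of 13 genes higher and 4 lower at an unadjusted p below 0.05 (4.42% and 6.57% of all probe sets). Without untreated ground 3 its median was -0.91, with 7 lower (8.73% of all probe sets). Smc3, a core cohesin subunit, was at 9.04 and 8.85 (space, nanoceria), 9.11 (space, untreated), 7.71, 8.21 and 7.62 (ground, nanoceria), and 9.18 and 8.91 (ground, untreated), a difference of -1.19 ± 0.22. Against untreated ground 1 alone it was -1.33. Smc4 of condensin differed by -1.29 ± 0.44 and the cohesin regulator Pds5a by -0.76 ± 0.25. The 3 treated ground values of Smc3 lay below both untreated ground values, and its level on untreated ground 3 lay within those of the other arrays. Between space and ground in treated cells the same list had a median of 0.80, with 6 of 13 genes higher at an unadjusted p below 0.05 (5.02% of all probe sets) and 0 lower (3.39% of all probe sets). Among the remaining lists, CDK inhibitors and arrest genes had a median of -0.10 with nanoceria on ground (3 of 15 higher and 3 lower, against the same shares of all probe sets as above for this comparison), with the p53 regulator gene Mdm2 at -0.999 ± 0.22, Ccng1 at -0.98 ± 0.25 and Gadd45b at 0.81 ± 0.22, and entry kinases and phosphatases of -0.086 (2 of 13 higher and 2 lower), with the phosphatase gene Cdc14a at -0.99 ± 0.21, Ppp2r5a at -0.56 ± 0.19 and the Cdk1-inhibiting kinase gene Pkmyt1 at 1.01 ± 0.37.

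Marker genes of muscle and of other cell types were compared in the same way between nanoceria-treated and untreated cells on ground. Of 12 muscle markers, 5 were higher at an unadjusted p below 0.05 (4.42% of all probe sets) and 0 lower (6.57% of all probe sets), with a median of 0.46, and of 0.37 without untreated ground 3. They were led by Acta1 at 2.09 ± 0.47, Myog at 2.09 ± 0.66 and Chrna1, a subunit gene of the muscle acetylcholine receptor, at 1.64 ± 0.35. Against untreated ground 1 alone Acta1 was at 1.25 and Myog at 1.01. No endothelial or epithelial marker passed that threshold, with Tie1 at 0.32 ± 0.15 and Krt8 at 0.83 ± 0.36, and among leukocyte markers Cd68, a lysosomal protein of macrophages, was lower at -0.42 ± 0.16. The others of smallest p in these lists were Cdh5 and Vwf (endothelium), Ptprc and Cd3e (leukocytes) and Cdh1 and Cldn4 (epithelium), all between 0.14 and 0.35.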

How the data were processed

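Total RNA of whole H9c2 cultures had been hybridised to 8 Clariom S Pico rat arrays. The deposited table holds linear intensity per probe set, normalized between arrays by the authors with RMA (robust multi-array averaging), per the submitters' processing notes. Software versions and the treatment of dim probe sets are not given in the sources used here. RMA sets the probe values of all arrays to a common distribution before they are summarised per probe set. A shift of all RNA in 1 culture would therefore not be seen. The design had assumed deposited log2 values; log2 of the intensity was therefore taken, with no pseudocount. Gene symbols came from the platform annotation: of 23188 probe sets, 15049 had 1 symbol, each matched to RefSeq (GRCr8), and 8139 were left unnamed but stayed in every fit.

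The models were limma's lmFit and eBayes (version 3.58.1, R 4.3.3), with Benjamini-Hochberg adjustment over all probe sets. Space against ground and nanoceria against no treatment used an additive fit of regime and treatment. The comparisons on ground, in treated cells and of the interaction used 1 mean per group, all 8 arrays sharing the spread. Simulated data of this size had changes placed in randomly chosen probe sets. In them, limma recovered 55.5% of 2-fold and 92.5% of 4-fold changes for space against ground, 44.5% and 88% for nanoceria, 0% and 81% for nanoceria on ground, and 0% and 79.5% for space in treated cells.

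The members and the gene lists were chosen with earlier results of these data known, so no pattern is independent support. Every member is named. Values on every array are given for Ccnb1, Cdk1 and Mki67 and, in each role class, for the genes with the largest and the smallest difference between treated and untreated cells on ground; Cenpf was added after its values were seen. From each other list the 3 genes of smallest p in that comparison are named. Intensities of different probe sets are comparable only roughly: beyond the cell type check and the summed intensities of lists, they were not set against each other. Alternatives were other scalings, a filter on dim probe sets, array weights, an intensity trend, a replicate block and each array left out. No 2 arrays held identical values.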

Additional observations from a re-analysis of the deposited data

How the results depend on the processing

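The comparisons with untreated cells on ground rest on untreated ground 3. With each array left out in turn, the number of probe sets past an adjusted p of 0.05 (limma) ran from 0 to 1 for space against ground and from 0 to 167 for nanoceria on ground (0 in both with all arrays). The median over the mitotic genes ran from 0.0053 to 2.43 for nanoceria on ground, from -2.26 to 0.23 for the interaction, from 0.13 to 0.79 for space against ground, from 0.092 to 1.31 for nanoceria over both regimes and from -0.16 to 0.38 for space in treated cells. Mitotic genes at an unadjusted p below 0.05 on ground ran from 1 to 31 higher and from 0 to 8 lower, and in space against ground in treated cells from 0 to 8 higher and from 0 to 4 lower. Among the genes recomputed under every setting, those that changed direction on ground were Mki67 (-0.81 to 2.24), Cks2 (-1.23 to 1.46), Pbk (-0.39 to 1.57), Ttk (-0.89 to 2.64), Bub1 (-0.83 to 1.09), Ndc80 (-1.47 to 1.34), Tpx2 (-0.12 to 3.08) and Hmmr (-1.13 to 0.76). Without untreated ground 3, Ccna2 (-0.34), Mad2l1 (-0.55), Cenpf (-2.06), Nusap1 (-0.61), Ckap2 (-0.78), Prc1 (-0.24) and Spc25 (-0.0066) also lay below 0 on ground. Under other settings, space against ground had 1 probe set past adjustment with an intensity trend and 4 with array weights, Ndc80 on ground was 0.15 with array weights, and the cause was not tested. With array weights, the median for space in treated cells was -0.042. The labels do not say that equal replicate numbers mark a shared culture run, and deviations of same-numbered arrays correlated at -0.296 (replicate 1) and -0.348 (replicate 3). With the replicate block the medians were -0.088 (space against ground), 0.70 (nanoceria over both regimes), 0.96 (nanoceria on ground), -0.41 (space in treated cells) and -0.78 (interaction), and Cks2 and Bub1 on ground were -0.075 and -0.071. The interaction could not be fitted without space untreated 1. Signal over background was not given, so a bound for dim probe sets was not set.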

Other observations

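Outside the mitotic list, named genes were ranked by how closely their level followed the mean mitotic profile over the 7 arrays without untreated ground 3, among 3911 genes with a range of at least 1 log2 unit. Highest were Gla (Pearson r = 0.984), Pigh (0.945), Zmpste24, Hpf1, Cox11, Cyb5d2, Yars2 and the spindle gene Dlgap5 (0.929), and lowest were Slc26a4 (-0.980), Nap1l5, St8sia6, Cpxm1, Or4c117b, Chrng, Gfral and Cd9 (-0.966). The mitotic genes themselves had r from -0.257 to 0.942 (median 0.687) in the 23 that had that range. These were not picked by r, unlike the genes named above, so the values cannot be set against each other. Of the 528 pairs of all 33 mitotic genes, 33.3% had r below 0. All points share the low mitotic levels of nanoceria ground 3, and the values are a description of 7 arrays. Of the 8 genes most alike, Dlgap5 was the only one with its lowest value on untreated ground 3, at -2.36 log2 units against the mean of the 7 other arrays. The others lay above that mean there, from 0.23 (Zmpste24) to 1.28 (Cox11).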
